A study of Mus musculus with 8 samples.

Results

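The Notch receptors and their ligands form a family of 9 genes: the receptor genes Notch1, Notch2, Notch3 and Notch4, the Delta-like ligand genes Dll1, Dll3 and Dll4, and the Jagged ligand genes Jag1 and Jag2. They were picked by gene symbol, not by level, and all 9 were found among the 21069 features of the day 5 data and the 19011 genes of the day 0 data. Their RNA was measured by sequencing in 8 cultures of 46C, a mouse embryonic stem (ES) cell line of strain C57BL/6 per the labels, in which a green fluorescent protein reporter sits in the neural gene Sox1. The study's title joins NDIME and the gene Mef2c in one axis of neural differentiation, so each comparison asks what a perturbation of that axis changes. The groups were a knockout of the long intergenic noncoding RNA NDIME (labelled LincNDIME_KO, here KO), wild type cells (WT), cells with a hairpin RNA against Mef2c (shMef2c) and cells with a control hairpin (shCtrl). Each was profiled at day 5, as neural progenitor cells made from ES cells by re-aggregation in a knockout serum replacement medium, and at day 0, as ES cells grown on feeder fibroblasts with LIF. Each group is 1 library of 1 culture, and whether KO, shMef2c or shCtrl is a single clone or a pool is not stated in the labels. Nothing below therefore has a replicate check or a p-value, and the difference between the control libraries shCtrl and WT is given for each member in place of a spread between cultures.

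A Notch receptor is a membrane protein that is cut when a ligand on a neighbouring cell binds it, and the freed intracellular part enters the nucleus and, with the DNA-binding protein Rbpj, switches on genes such as Hes5 and Hey1. In the developing nervous system, cells about to become neurons carry proneural transcription factors such as Neurog1 and Neurog2, which switch on Dll1 and Dll3, and the Delta protein then holds neighbouring cells in the progenitor state through their Notch receptors. Delta-like and Jagged proteins differ in how strongly they act on each receptor, and Lfng and Mfng, sugar-adding enzymes of the Fringe family, shift that preference.

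The day 5 libraries held 25996204 to 26834802 estimated reads and the day 0 libraries 20312032 to 20883674. Mef2c was at 0.10 FPKM in KO against 0.45 in WT, and at 0.12 FPKM in shMef2c against 0.50 in shCtrl at day 5 (17, 77, 20 and 82 reads). At day 0 it was at 0.24 RPKM in KO against 0.23 in WT, and at 0.37 RPKM in the library labelled shMef2c, against 0.16 in shCtrl, a ratio of read shares of 2.21 with a 95% counting interval of 1.27 to 3.95. That runs against the label, so the words "labelled shMef2c" are kept for day 0 throughout. No feature carries the name NDIME, so the knockout itself was not checked. The 8 neural progenitor markers summed to 97.8 FPKM in KO, 322 in WT, 37.1 in shMef2c and 390 FPKM in shCtrl at day 5, and the 8 markers of naive pluripotency to 330 FPKM in KO, 122 in WT, 417 in shMef2c and 89.7 in shCtrl. All 8 progenitor markers were above 0.1 FPKM in each day 5 library, and the sum was lowest in shMef2c. Most of the WT and shCtrl sums was Fabp7, at 29.95 FPKM in KO, 173.67 in WT, 11.58 in shMef2c and 232.85 in shCtrl. In KO, Sox1 at 12.05 FPKM against 15.76 in WT and Pax6 at 8.15 against 11.99 did not pass 2-fold, and Olig2 rose. In shMef2c both fell, Sox1 to 2.45 FPKM against 13.60 in shCtrl and Pax6 to 0.21 against 12.32. In bulk RNA, fewer cells of a type and less RNA per cell cannot be told apart, and this holds for every gene below.

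Across the family, the Delta-like ligands differed most between cultures at day 5, with the highest library at 7.15 times the lowest for Dll4, 3.78 times for Dll1 and 2.48 times for Dll3, beside 1.30 to 2.24 times for the other members. In KO, Dll1, Dll3 and Dll4 were all at less than 0.5 times their WT share of reads, and in shMef2c Dll1 was at 0.265 and Dll4 at 0.143 times the shCtrl share. Dll3 passed the 2-fold rule in KO and Dll1 in shMef2c, where 3.26% and 4.78% of all features were 2-fold lower, while Dll4 was too scarce to be counted under that rule. Among the receptors no gene passed it. FPKM and RPKM are read (or fragment) counts scaled to transcript length and library size, so levels can be compared between genes. A log2 ratio is taken on these values plus 1, and a gene counts as past the rule at 2-fold or more (1 on the log2 scale) where its mean over the pair is 1 or more. Adding 1 shrinks the log2 ratio of a scarce gene towards 0.

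**Figure D1:**
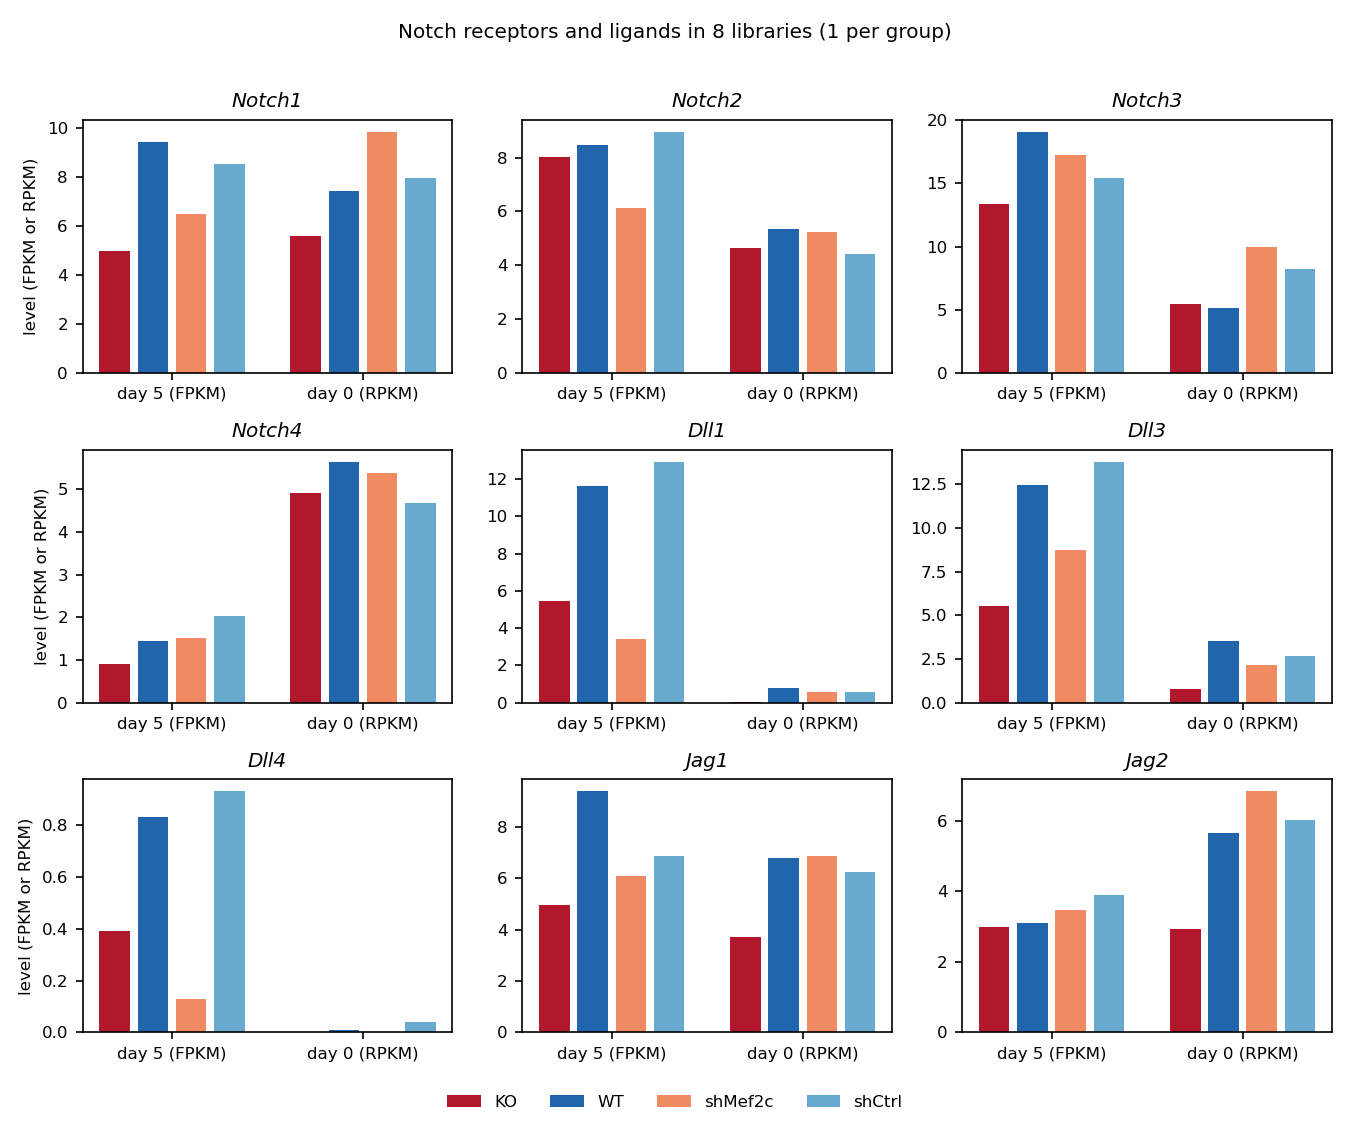
Level of each of the 9 genes in each library (y axis, FPKM at day 5 and RPKM at day 0, linear and starting at 0), 1 bar per library with no error bar because each group has 1 library. Dll1 and Dll3 stand lower in KO and shMef2c than in WT and shCtrl at day 5, Notch3 is the highest member in each day 5 library, and Dll4 is near 0 at day 0.

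Notch3 was the most abundant member in each of the 4 day 5 libraries, at 13.36 FPKM in KO, 19.08 in WT, 17.27 in shMef2c and 15.42 in shCtrl. It made up 49.0% of the summed receptor level in KO, 49.7% in WT, 55.0% in shMef2c and 44.2% in shCtrl. Dll4 was the least abundant and Notch4 the next in all 4. Between them the order moved with the culture. Dll1 had rank 4 of 9 in KO, 3 in WT, 7 in shMef2c and 3 in shCtrl. Neighbours in that order were often close, as Dll3 and Dll1 at 5.56 and 5.45 FPKM in KO, and Notch1 and Jag1 at 9.42 and 9.38 FPKM in WT. With 1 library per group such neighbours have no spread to be separated by.

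Notch1, the receptor most studied in neural progenitors, was at 4.99 FPKM in KO against 9.42 in WT, and at 6.50 FPKM in shMef2c against 8.52 in shCtrl. KO was the lowest and both perturbed cultures lay below both controls. KO over WT, its ratio of read shares was 0.530 (95% counting interval 0.494 to 0.568, from 1247 and 2384 reads), and shMef2c over shCtrl it was 0.763 (0.715 to 0.814). The log2 ratios of -0.80 and -0.34 stayed under the 2-fold rule, and the controls differed by 0.906 times, shCtrl over WT. These intervals, here and below, are exact (Clopper-Pearson) and cover counting error only, not differences between cultures.

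Notch2 differed little between KO and WT and more between shMef2c and shCtrl. It was at 8.04 FPKM in KO against 8.48 in WT, and at 6.14 FPKM in shMef2c against 8.96 in shCtrl. The ratio of read shares was 0.949 (0.895 to 1.01) in the knockout pair and 0.685 (0.644 to 0.729) in the hairpin pair. Only the second interval left out 1, and shCtrl over WT stood at 1.06 (0.999 to 1.12).

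Notch3 ran in different directions in the 2 pairs. Its share of reads was 0.700 times WT in KO (0.667 to 0.735) and 1.12 times shCtrl in shMef2c (1.07 to 1.17), with log2 ratios of -0.48 and 0.15. The control libraries themselves differed by 0.809 times, shCtrl over WT (0.772 to 0.848), and shMef2c lay between them, so the direction in shMef2c turned with the control chosen. Against WT, shMef2c stood at -0.14 on the log2 scale.

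Notch4, known mainly from endothelium, was scarce at day 5, at 0.90 FPKM in KO against 1.44 in WT, and 1.51 FPKM in shMef2c against 2.02 in shCtrl (138, 196, 230 and 266 estimated reads). The ratio of read shares was 0.713 (0.569 to 0.891) in KO and 0.845 (0.705 to 1.01) in shMef2c, and the controls differed as much, at 1.40 (1.16 to 1.69) for shCtrl over WT. The groups overlapped, since shMef2c was above WT. The Notch4 transcript length behind FPKM was 5870 bases in KO, 5146 in WT, 5787 in shMef2c and 5122 in shCtrl. Its FPKM values and log2 ratios at day 5 therefore also depend on that length, while the ratios of read shares do not. Of the endothelial marker genes, Cdh5 was at 0.39 to 1.22 FPKM, Emcn at 0 to 0.33 and Tie1 at 0.09 to 0.40 across the day 5 libraries, and the list of 8 summed to 23.9 FPKM in KO, 8.89 in WT, 19.1 in shMef2c and 11.5 in shCtrl. Most of that sum was Pecam1, at 19.7 FPKM in KO, 5.73 in WT, 14.6 in shMef2c and 5.36 in shCtrl, a gene that ES cells also express. The part of endothelial RNA in the Notch4 and Dll4 levels was not tested.

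Summed over the 4 receptors, the level was 27.3 FPKM in KO against 38.4 in WT, and 31.4 FPKM in shMef2c against 34.9 in shCtrl. The ligand sum differed more, at 19.4 FPKM in KO against 37.5 in WT, and 21.9 FPKM in shMef2c against 38.5 in shCtrl. The receptor sum was therefore 1.41 times the ligand sum in KO and 1.03 times in WT, and 1.44 times in shMef2c and 0.908 times in shCtrl.

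**Figure D2:**
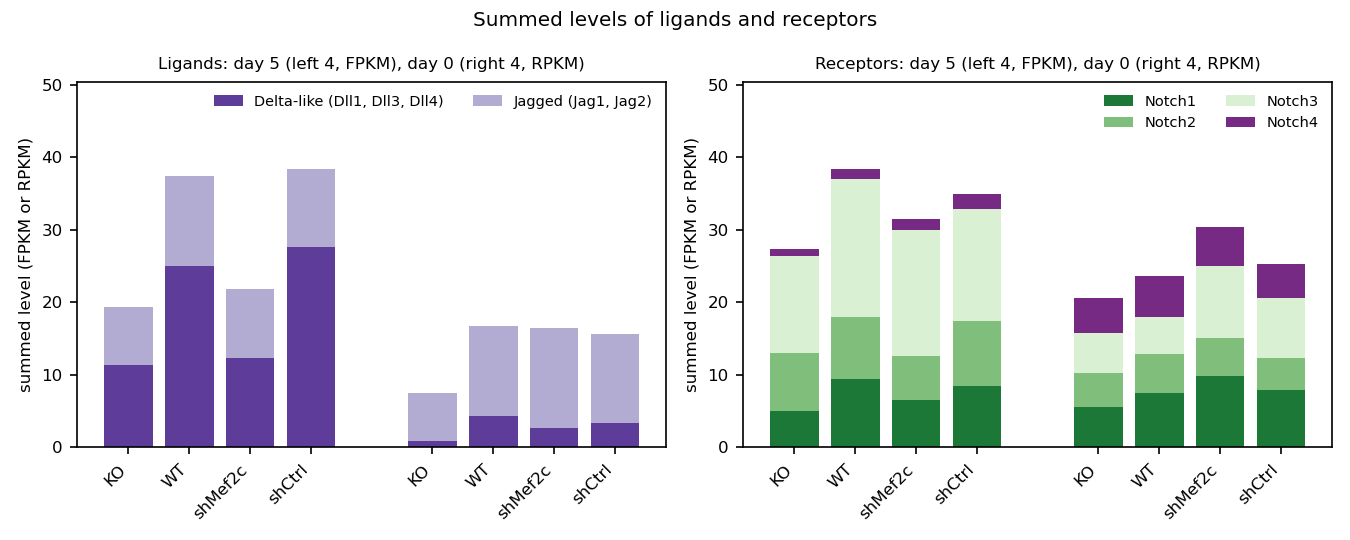
Summed level of the 5 ligand genes (left panel, split into Delta-like and Jagged) and of the 4 receptor genes (right panel) in each library, in FPKM for day 5 and RPKM for day 0, with axes starting at 0. At day 5 the ligand bars of KO and shMef2c, at 19.4 and 21.9, stand below those of WT and shCtrl, at 37.5 and 38.5, and the dark Delta-like portion differs more than the Jagged portion.

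Dll1, the main activating Delta ligand of neural and presomitic tissue, was at 5.45 FPKM in KO against 11.65 in WT, and at 3.43 FPKM in shMef2c against 12.95 in shCtrl. The control libraries were close, and both perturbed cultures were far below both. The read share in KO was 0.467 times that in WT (0.419 to 0.521, from 486 and 1053 reads), with a log2 ratio of -0.97, just short of the 2-fold rule, and 3.5% of all features had a lower ratio. The shMef2c share was 0.265 of the shCtrl share (0.233 to 0.301, from 308 and 1136 reads), with a log2 ratio of -1.65, and 1.56% of features lay lower. Dll1 thus fell in shMef2c. Against the other control library its log2 ratio was -1.11 in KO and -1.51 in shMef2c, both past 2-fold (5.52% and 3.22% of features were 2-fold lower there), and shCtrl over WT was 1.11 times (1.02 to 1.21).

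Dll3, a divergent Delta that acts inside the cell on Notch signalling and is best known from somites and neuronal precursors, was at 5.56 FPKM in KO against 12.49 in WT, and at 8.74 FPKM in shMef2c against 13.81 in shCtrl. KO was the lowest of the 4. Its read share was 0.445 times WT in KO (0.388 to 0.509, from 307 and 699 reads), and at a log2 ratio of -1.04 Dll3 fell in KO, with 2.9% of features lower. In shMef2c the share was 0.632 times shCtrl (0.563 to 0.709), a log2 ratio of -0.60 that did not pass 2-fold. The controls differed by 1.11 times (0.999 to 1.23), shCtrl over WT. Dll1 and Dll3 were at nearly the same level in KO, WT and shCtrl, with Dll1 at 0.980, 0.933 and 0.938 times Dll3. In shMef2c that ratio was 0.392. The counting intervals of Dll1 and Dll3 in shMef2c over shCtrl do not overlap, but they cover counting error only. Whether Dll1 and Dll3 responded differently in shMef2c was not tested.

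Dll4, the Delta ligand of sprouting vessels that is also made in some spinal interneuron precursors, was at 0.39 FPKM in KO against 0.83 in WT, and at 0.13 FPKM in shMef2c against 0.93 in shCtrl (35, 75, 12 and 82 reads). With means under 1 FPKM it did not enter the 2-fold counts. Its read share was 0.473 times WT in KO (0.307 to 0.715) and 0.143 times shCtrl in shMef2c (0.0710 to 0.263), while the controls differed by 1.13 times (0.815 to 1.57). Endothelial markers went both ways. Pecam1, Cdh5, Kdr, Tek and Esam were higher in KO than in WT, with Cdh5 at 0.48 FPKM against 0.39 (50 and 41 reads). Tie1, Emcn and Cldn5 were lower in KO, with Tie1 at 0.19 FPKM against 0.25 in WT. In shMef2c, Cdh5, Kdr, Tie1, Emcn, Esam and Cldn5 were lower than in shCtrl, with Cdh5 at 0.72 FPKM against 1.22. Pecam1 and Tek were higher there. In the authors' deposited table for KO over WT, which lists 2253 genes with an absolute log2 ratio of 1 or more, Dll3 has a log2 ratio of -1.17, Dll1 of -1.10 and Dll4 of -1.09, and no other member is listed. In the authors' deposited table for shMef2c over shCtrl, with 2758 genes, Dll4 has -2.84 and Dll1 -1.92, and no other member is listed.

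Jag1, a ligand that drives Notch in many epithelia and in the inner ear and also marks bands of the spinal cord, was at 4.97 FPKM in KO against 9.38 in WT, and at 6.09 FPKM in shMef2c against 6.85 in shCtrl. Its read share was 0.529 times WT in KO (0.483 to 0.580) and 0.888 times shCtrl in shMef2c (0.809 to 0.974), neither past 2-fold. WT was the high library here, for shCtrl was itself at 0.731 times WT (0.673 to 0.795), and KO was at 0.724 times shCtrl (0.656 to 0.798). Jag2, the other Jagged ligand, was at 3.00 FPKM in KO against 3.11 in WT, and 3.47 FPKM in shMef2c against 3.91 in shCtrl. The intervals held 1 in both pairs, at 0.824 to 1.13 in KO over WT and 0.769 to 1.02 in shMef2c over shCtrl, and shMef2c was above WT. The controls differed more, at 1.26 times for shCtrl over WT (1.09 to 1.46), so KO was below shCtrl, at 0.766 times (0.659 to 0.889).

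The Delta-like genes made up 58.9% of the summed ligand level in KO against 66.7% in WT, and 56.3% in shMef2c against 72.0% in shCtrl. In counts over the whole family, 8 of the 9 genes passed the filter on low values. Of these, 1 (Dll3) fell and none rose past 2-fold in KO over WT, where 3.26% of all features tested were 2-fold lower and 4.05% higher. In shMef2c over shCtrl, 1 of 8 (Dll1) fell and none rose, with 4.78% of features 2-fold lower and 4.49% higher. No member passed 2-fold in shCtrl over WT, where 0.996% of features did in either direction. A count of 1 in 8 genes is too small to be read against these shares. The median log2 ratio of the 8 was -0.64 in KO over WT, beside 0.00 for all features, and -0.31 in shMef2c over shCtrl, beside -0.05. Counting intervals lay wholly below 1 for 6 of 8 members in KO over WT, where 36.9% of all features did so, and for 5 of 8 in shMef2c over shCtrl, where 42.7% did. They did so for 3 of 8 members in shCtrl over WT (24.6% of features) and lay above 1 for another 3 (32.2%), so the control libraries also differed by more than counting error. KO and shMef2c were both below both controls for Notch1, Notch2, Dll1, Dll3, Dll4 and Jag1, of which 5 passed the filter, and 30.9% of features showed that order.

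**Figure D3:**
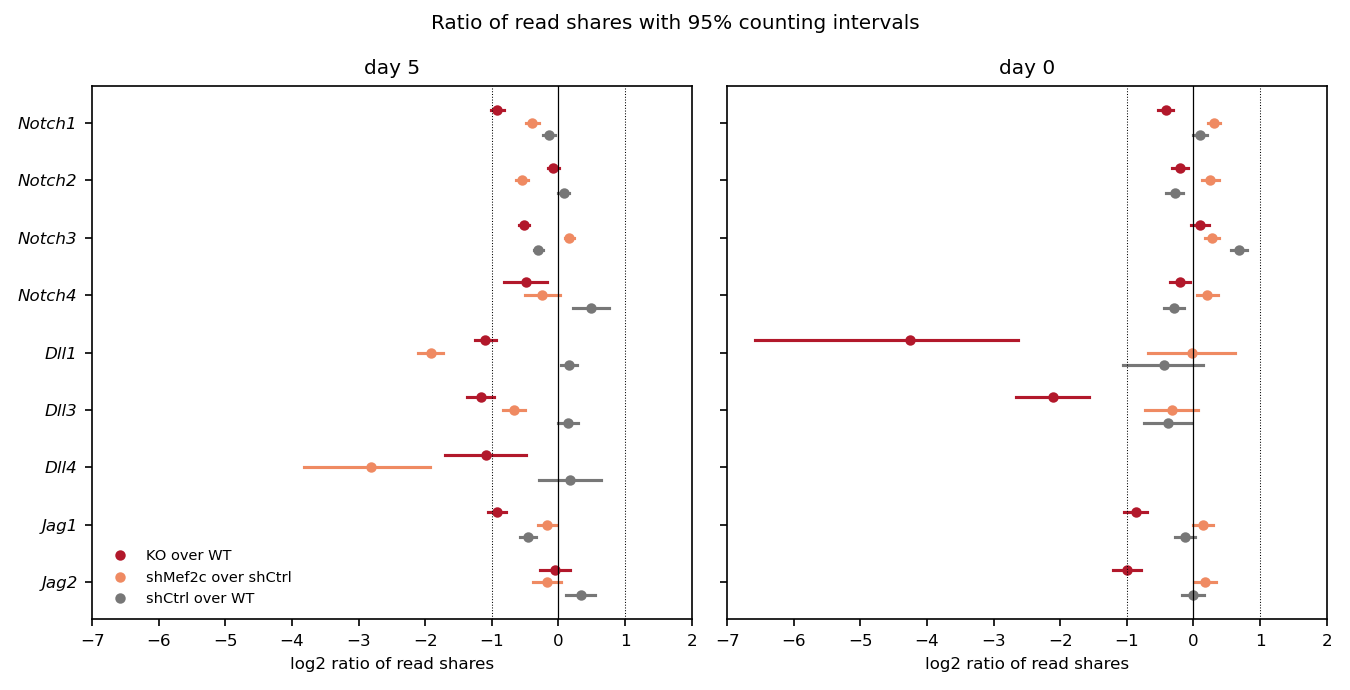
Ratio of read shares for each of the 9 genes on a log2 axis, at day 5 (left) and day 0 (right), for KO over WT, shMef2c over shCtrl and shCtrl over WT, with 95% counting intervals as horizontal bars and dotted lines at 2-fold. At day 5, Dll1 lies at 0.467 times in KO and 0.265 times in shMef2c while shCtrl over WT is at 1.11, and at day 0 Dll1 and Dll3 lie far below 1 in KO, at 0.0523 and 0.233 times. Dll4 has no day 0 point because it had at most 3 reads.

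Promoter sequence was searched for all 9 members, since several of them were low in KO, for the E-box motifs that proneural factors bind and for the site of Rbpj. RefSeq promoters (GRCm38.p6, 250 bases before to 50 after each start, 300 bases) matched all 9 genes with 10 windows, Dll1 having a pair of starts. The searched motifs were CAGCTG and CAGATG, both E-boxes, and GTGGGAA, a form of the Rbpj site, on both strands. The E-box CAGCTG reads the same on both strands, and the 3 motifs cannot match at the same position. It was found once in each of 3 windows, whereas the CAGATG and Rbpj motifs had no match in the 10. Of all 32851 RefSeq promoter windows, 16.3% hold CAGCTG, 17.2% CAGATG and 6.38% GTGGGAA. The 3 windows with a match are printed 5′ to 3′ on the gene's strand, with CAGCTG in capitals, to show where it lies. They are the upstream Dll1 start (chr17:15376883-15377182, minus strand), Dll3 (chr7:28301736-28302035, minus strand) and Jag1 (chr2:137116471-137116770, minus strand).
Dll1: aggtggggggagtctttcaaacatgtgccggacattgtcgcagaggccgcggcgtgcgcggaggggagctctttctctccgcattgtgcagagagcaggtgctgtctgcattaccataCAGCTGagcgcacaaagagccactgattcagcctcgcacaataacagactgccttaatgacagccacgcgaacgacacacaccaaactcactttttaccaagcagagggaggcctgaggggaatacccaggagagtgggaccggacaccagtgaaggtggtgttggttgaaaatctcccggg
Dll3: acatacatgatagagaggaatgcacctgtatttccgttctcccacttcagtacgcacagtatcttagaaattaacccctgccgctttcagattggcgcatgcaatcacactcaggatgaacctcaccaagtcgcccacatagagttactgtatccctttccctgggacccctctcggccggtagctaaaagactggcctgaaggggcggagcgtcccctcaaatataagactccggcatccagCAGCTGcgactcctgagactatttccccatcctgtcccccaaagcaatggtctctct
Jag1: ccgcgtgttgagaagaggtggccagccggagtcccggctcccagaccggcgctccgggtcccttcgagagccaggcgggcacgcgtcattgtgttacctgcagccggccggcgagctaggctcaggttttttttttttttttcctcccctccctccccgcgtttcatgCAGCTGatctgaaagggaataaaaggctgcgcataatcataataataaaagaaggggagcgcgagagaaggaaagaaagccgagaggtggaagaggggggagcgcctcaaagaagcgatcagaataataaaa
The match begins 132 bases before the annotated start in Dll1, 82 before it in Jag1 and 7 before it in Dll3. A match is only a run of letters here, and no binding was measured. The windows have a GC content of 56.3% for Dll1, 52.0% for Dll3 and 55.7% for Jag1, and those of Notch2 and Jag2 reach 73.0% and 86.0%. In KO at day 5, Dll1, Dll3 and Jag1, which hold a match, were at 0.467, 0.445 and 0.529 times WT. Notch1 and Dll4, which hold none, were at 0.530 and 0.473 times WT. A part of these sites in the KO levels was not tested.

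At day 0 the ligands made up a smaller part of the family. The receptor sum was 20.6 RPKM in KO against 23.6 in WT, and 30.4 RPKM in the library labelled shMef2c against 25.3 in shCtrl. The ligand sum was 7.49 RPKM in KO against 16.8 in WT, and 16.4 RPKM in the library labelled shMef2c against 15.6 in shCtrl. The KO ES cells had the lowest ligand sum of the 4. Delta-like genes made up 11.3% of the ligand level in KO against 25.7% in WT, and 16.4% in the library labelled shMef2c against 21.2% in shCtrl.

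Dll3 was at 0.81 RPKM in KO ES cells against 3.52 in WT (36 and 159 reads), and at 2.13 RPKM in the library labelled shMef2c against 2.69 in shCtrl (96 and 121 reads). KO was far below the other 3 libraries. Its read share was 0.233 times WT (0.157 to 0.336), and at a log2 ratio of -1.32 Dll3 fell in KO, with 0.583% of features lower. Against shCtrl the share was 0.304 times (0.204 to 0.445), past 2-fold as well (0.966% of features were 2-fold lower there), while the library labelled shMef2c was at 0.796 times shCtrl (0.603 to 1.05), and shCtrl itself at 0.765 times WT (0.599 to 0.975). Dll1 was scarce, at 0.04 RPKM in KO against 0.78 in WT (3 and 59 reads), and at 0.56 RPKM in the library labelled shMef2c against 0.57 in shCtrl (42 and 43 reads). It did not pass the filter, and its share in KO was 0.0523 times WT (0.0105 to 0.160), beside 0.733 (0.483 to 1.10) for shCtrl over WT. Dll4 had 0 reads in KO, 1 in WT, 0 in the library labelled shMef2c and 3 in shCtrl, all at or under the 3 reads that a count of 0 allows, so no ratio is given.

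Both Jagged genes were also at their lowest in KO ES cells. Jag1 was at 3.71 RPKM in KO against 6.79 in WT, and at 6.87 RPKM in the library labelled shMef2c against 6.25 in shCtrl. Jag2 was at 2.93 RPKM in KO against 5.66 in WT, and at 6.84 RPKM in the library labelled shMef2c against 6.04 in shCtrl. The read share in KO was 0.550 times WT for Jag1 (0.487 to 0.619) and 0.50 times WT for Jag2 (0.432 to 0.579), with log2 ratios of -0.73 and -0.76, short of the rule. Against shCtrl they were at 0.599 and 0.503 times, and shCtrl over WT stood at 0.918 (0.829 to 1.02) for Jag1 and 0.995 (0.883 to 1.12) for Jag2. Jag2 was thus low in KO at day 0 and within counting error of WT, though not of shCtrl, at day 5.

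The receptors differed less between KO and WT at day 0. Notch1 was at 5.58 RPKM in KO against 7.44 in WT (0.750 times, 0.693 to 0.811), with shCtrl over WT at 1.07 (0.995 to 1.15). Notch2 was at 4.66 RPKM in KO against 5.36 in WT and Notch4 at 4.92 RPKM in KO against 5.65 in WT, both at 0.87 times, while shCtrl over WT stood at 0.822 and 0.818. Notch3 was at 5.48 RPKM in KO against 5.14 in WT, and its interval held 1 (0.974 to 1.18). Against shCtrl the direction turned for Notch2 (log2 ratio 0.07), Notch3 (-0.51) and Notch4 (0.06). The larger Notch3 difference was between the controls, at 8.22 RPKM in shCtrl against 5.14 in WT, 1.60 times (1.47 to 1.75). In the library labelled shMef2c all 4 receptors stood above shCtrl, with Notch1 at 9.85 RPKM against 7.95, Notch2 at 5.25 against 4.41, Notch3 at 9.96 against 8.22 and Notch4 at 5.38 against 4.67. Their read shares were 1.15 to 1.24 times shCtrl, none past 2-fold. Against WT, that library had log2 ratios of -0.03 for Notch2 and -0.06 for Notch4, so for these the direction turned with the control. All 8 feeder fibroblast markers were above shCtrl in the same library, summing to 338 RPKM there, 208 in shCtrl, 188 in KO and 202 in WT. The 8 markers of pericytes and smooth muscle, cells in which Notch3 is a main receptor, summed to 113 RPKM there, 70.9 in shCtrl, 63.0 in KO and 63.6 in WT, most of it Acta2 and Tagln. The part of feeder RNA in the receptor levels was not tested.

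Over the 7 members that passed the filter at day 0, 1 (Dll3) fell in KO over WT, where 1.58% of features were 2-fold lower and 1.35% higher, and the median log2 ratio was -0.36, beside 0.03 for all features. No member passed 2-fold in the library labelled shMef2c over shCtrl, where 0.231% of features did in either direction, or in shCtrl over WT, where 1.27% did. Intervals lay below 1 for 6 of 7 members in KO over WT (29.1% of features) and above 1 for 5 of 7 in the library labelled shMef2c over shCtrl (26.8%). In shCtrl over WT they lay below 1 for 3 of 7 (25.7%) and above 1 for 1 (27%). KO was the lowest of the 4 day 0 libraries for Notch1, Dll1, Dll3, Jag1 and Jag2, of which 4 passed the filter, and 28.1% of features had KO lowest.

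From day 0 to day 5, Dll1 and Dll3 rose past 2-fold in all 4 lines. Notch3 was higher and Notch4 lower at day 5 in all 4 lines. Notch3 passed 2-fold in KO and WT only, and Notch4 in all lines but shCtrl. These ratios set separately normalized tables against each other and are centred on the median of the 17363 shared genes. Dll1 had log2 ratios of day 5 over day 0 of 2.62 in KO, 2.81 in WT, 1.54 in shMef2c and 3.08 in shCtrl. Dll3 had 1.84 in KO, 1.56 in WT, 1.67 in shMef2c and 1.93 in shCtrl. The Dll1 ratio was the smallest in shMef2c, and those of Dll3 lay close together on these values plus 1. Ratios of read shares, which are not centred, lay further apart. For Dll1 they were 124 in KO (3 reads at day 0), 13.9 in WT, 5.70 in shMef2c and 21.1 in shCtrl. For Dll3 they were 6.54 in KO (4.62 to 9.51), 3.42 in WT (2.88 to 4.09), 3.94 in shMef2c (3.16 to 4.95) and 4.96 in shCtrl (4.09 to 6.06). On that scale KO had the largest ratio for both genes. Notch3 had log2 ratios of 1.14 in KO, 1.69 in WT, 0.77 in shMef2c and 0.76 in shCtrl, past 2-fold in KO and WT. Notch4 had -1.65 in KO, -1.47 in WT, -1.31 in shMef2c and -0.98 in shCtrl, the last short of 2-fold. In the day 5 data Notch4 includes a transcript predicted by the authors and its length differed between libraries. Its log2 ratios within day 5 and across days therefore also depend on the annotation.

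No other member passed the 2-fold rule between days, though in shCtrl Notch2 at 0.81 moved more than Notch3 at 0.76. Notch2 had log2 ratios of 0.23 to 0.81, Notch1 of -0.50 to 0.28, Jag1 of -0.11 to 0.39 and Jag2 of -0.77 to 0.01. Jag2 was at 0.01 in KO, where its day 0 level was already low, against -0.72 in WT, and at -0.77 in shMef2c against -0.59 in shCtrl. Its ratios of read shares, not centred, were 0.881 in KO, 0.457 in WT, 0.455 in shMef2c and 0.579 in shCtrl. Dll4 went uncounted under the filter, at 35 reads at day 5 and 0 at day 0 in KO, 75 and 1 in WT, 12 and 0 in shMef2c, and 82 and 3 in shCtrl. In counts, KO had 3 members higher and 1 lower past 2-fold, beside 10.1% and 9.79% of features, and WT 3 higher and 1 lower, beside 15.3% and 14.7%. The shMef2c line had 2 higher and 1 lower, beside 9.37% and 9.5%, and shCtrl 2 higher and none lower, beside 15.3% for each direction. The shMef2c values of this paragraph and the one before use the day 0 library labelled shMef2c.

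Beyond receptors and ligands, a list of 46 other Notch pathway genes was followed. At day 5, 38 of them passed the filter in KO over WT, with 6 lower and none higher past 2-fold (median log2 ratio -0.16), and 41 in shMef2c over shCtrl, with 7 lower and 1 higher (median -0.27), beside medians of 0.00 and -0.05 over all features. Of all features, 3.26% were 2-fold lower and 4.05% higher in KO over WT, and 4.78% lower and 4.49% higher in shMef2c over shCtrl. None of 40 passed 2-fold in shCtrl over WT (median 0.08), where 0.996% of features did. Lfng, Mfng, Dtx4, Hes5, Hey1 and Nrarp fell in both pairs, which have no control library in common, and Dlk1 fell in shMef2c in addition. The share of all features 2-fold lower in both pairs is not given, here or below, so the overlap has no background to be read against.

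Of the genes that Notch switches on, Hes5, Hey1 and Nrarp fell in both pairs. Hes5, a repressor that keeps progenitors undifferentiated, was at 4.47 FPKM in KO against 23.32 in WT, and at 0.57 FPKM in shMef2c against 36.04 in shCtrl. Hey1, a related repressor, was at 4.07 FPKM in KO against 14.26 in WT, and at 5.65 FPKM in shMef2c against 15.81 in shCtrl. Nrarp, a feedback inhibitor of the Notch nuclear complex, was at 10.09 FPKM in KO against 29.96 in WT, and at 6.37 FPKM in shMef2c against 32.44 in shCtrl. Hes1 did not follow them past 2-fold, at 17.64 FPKM in KO against 30.62 in WT, and 34.07 FPKM in shMef2c against 34.74 in shCtrl. Hes7, the oscillating repressor of presomitic mesoderm, rose in shMef2c, at 2.29 FPKM against 0.52 in shCtrl.

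Both Fringe genes named in the background fell as well. Lfng was at 5.14 FPKM in KO against 18.20 in WT, and at 4.90 FPKM in shMef2c against 17.65 in shCtrl. Mfng was at 6.22 FPKM in KO against 16.28 in WT, and at 4.72 FPKM in shMef2c against 18.06 in shCtrl. Dtx4, of the Deltex family of ubiquitin ligases that act on Notch traffic, was at 11.23 FPKM in KO against 27.10 in WT, and at 6.21 FPKM in shMef2c against 24.52 in shCtrl. Dlk1, a non-canonical Delta-like protein, was at 10.32 FPKM in KO against 7.15 in WT, and at 1.19 FPKM in shMef2c against 8.72 in shCtrl, so it passed the rule in the hairpin pair and not in the knockout pair, and the difference between the pairs was not tested. The genes for ligand processing and receptor cleavage, for ligand endocytosis and for the nuclear complex had no member past 2-fold in either day 5 pair. Rbpj, the DNA-binding partner, was at 42.62 FPKM in KO against 24.98 in WT, and at 31.16 FPKM in shMef2c against 23.77 in shCtrl. At day 0, 1 of 33 pathway genes fell in KO, the ubiquitin ligase gene Dtx1 at 4.07 RPKM against 9.30 in WT (1.58% of features), and none of 34 passed 2-fold in the library labelled shMef2c over shCtrl (0.231%).

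**Figure D4:**
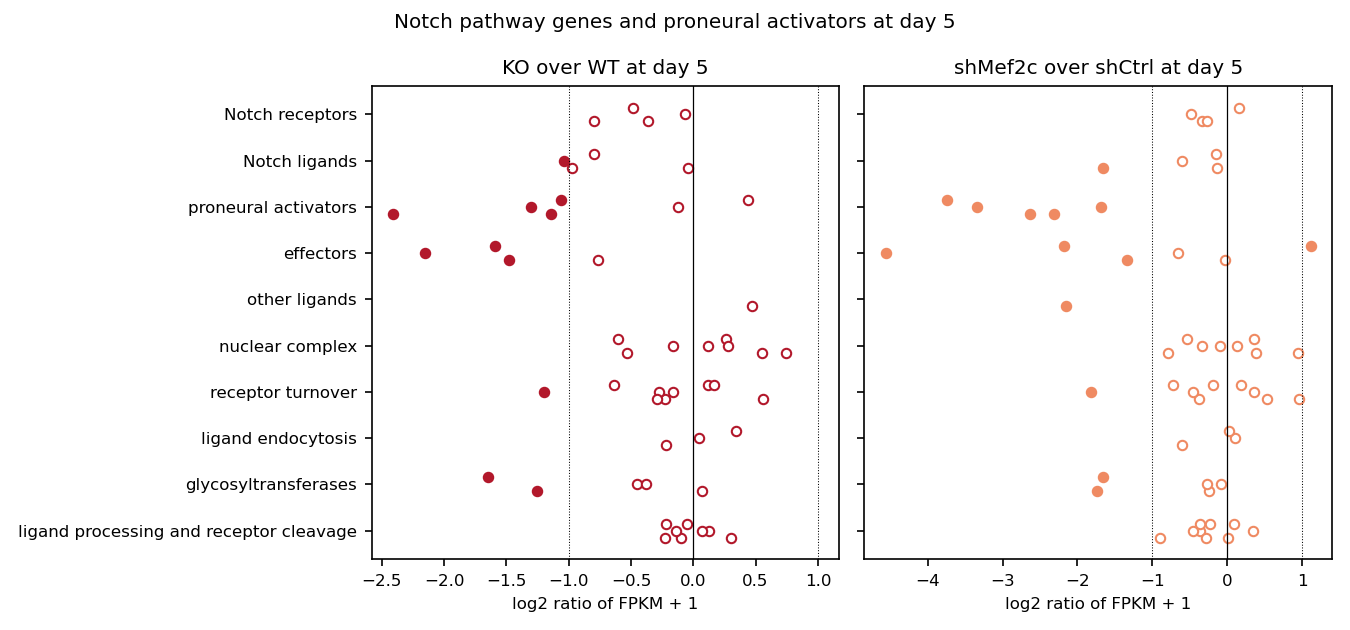
Log2 ratio of FPKM plus 1 at day 5 (x axis) for each gene that passed the filter, by role (y axis), in KO over WT (left) and shMef2c over shCtrl (right). The x scales differ between panels, filled points are past 2-fold and dotted lines mark 2-fold. Proneural activators and effectors hold most of the filled points, while the cleavage, endocytosis and nuclear complex genes stay within 2-fold in both panels.

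Most genes of the list named proneural activators fell in both pairs. Of these, Neurog1 and Neurog2 are the ones named above as switching on Dll1 and Dll3. An action of the others, such as Insm1 and Myt1, on Delta genes was not looked at. In KO, 4 of the 6 measured genes fell, with Neurog1 at 1.37 FPKM against 4.23 in WT, Neurog2 at 0.63 against 3.03, Neurod4 at 1.53 against 12.47 and Insm1 at 4.02 against 9.51. Myt1 at 1.94 FPKM in KO against 2.20 in WT and Neurog3 at 1.53 against 0.87 did not pass. In shMef2c all 5 measured genes fell, with Neurog1 at 0.18 FPKM against 6.33 in shCtrl, Neurog2 at 0.78 against 4.74, Neurod4 at 0.17 against 14.59, Myt1 at 0.06 against 4.29 and Insm1 at 0.28 against 11.97. Their list of 7 summed to 11.1 FPKM in KO against 32.4 in WT, and to 2.10 FPKM in shMef2c against 42.9 in shCtrl. Of all features, 3.26% were 2-fold lower in KO and 4.78% in shMef2c. None of 5 measured genes passed 2-fold in shCtrl over WT, though their median log2 ratio was 0.49, beside 0.02 for all features. The sum was lowest in shMef2c, as was Dll1, while Dll3 was lowest in KO. At day 0 none of the 7 passed the filter. Neurog1 was then at 0 RPKM in KO against 1.24 in WT (0 and 43 reads). It was at 0.32 RPKM in the library labelled shMef2c against 0.14 in shCtrl (11 and 5 reads), so the controls differed as well.

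Markers of cell types also differed between the libraries, not all in the direction of the members, and their part in the member levels was not tested. Hes5 and Hes7 stand in marker lists as well as among the effectors. Of the 8 neural progenitor markers, 4 fell and 1 rose in KO and 7 fell in shMef2c, and of the 8 neuronal markers, 1 fell in KO and 7 fell in shMef2c. The neuronal list summed to 250 FPKM in KO against 283 in WT, and to 105 FPKM in shMef2c against 412 in shCtrl. Of the 8 naive pluripotency markers, 6 rose in KO and 8 in shMef2c. Beside these counts, 3.26% of all features were 2-fold lower and 4.05% higher in KO, and 4.78% lower and 4.49% higher in shMef2c. Of the 8 visceral endoderm markers, 5 rose and 1 fell in KO, and 3 of 6 measured fell in shMef2c. That list summed to 112 FPKM in KO against 43.2 in WT, and to 58.1 FPKM in shMef2c against 104 in shCtrl. The controls differed as well, with 4 of 6 measured genes 2-fold higher in shCtrl over WT, where 0.724% of features were. Afp, a defining gene of visceral endoderm, was high in KO alone, at 23.33 FPKM against 0.30 in WT, and at 0.13 FPKM in shMef2c against 0.36 in shCtrl. Ttr and Cubn were also highest in KO, at 22.68 and 19.91 FPKM. Rbp4, Apoa1, Foxa2 and Gata4 were highest in shCtrl and Sox17 in shMef2c. Foxa2 was the gene that fell in KO, at 6.45 FPKM against 30.38 in WT. Presomitic mesoderm, where Dll1, Dll3, Lfng and Hes7 also act, had a marker sum of 19.7 FPKM in KO, 57.2 in WT, 140 in shMef2c and 55.4 in shCtrl, so it was high in shMef2c, where Dll1 was lowest. Its defining gene Tbx6 was at 0.27 FPKM in KO, 0.45 in WT, 1.16 in shMef2c and 0.39 in shCtrl, and T made up most of the differences, at 0.35 FPKM in KO, 40.5 in WT, 106 in shMef2c and 36.6 in shCtrl. The pericyte and smooth muscle list summed to 27.5 FPKM in KO, 64.7 in WT, 39.8 in shMef2c and 29.4 in shCtrl, highest in WT, as was Notch3. Most of that sum was Tagln, at 20.34 FPKM in KO, 44.20 in WT, 22.83 in shMef2c and 19.42 in shCtrl, and Acta2, at 3.35 FPKM in KO, 15.96 in WT, 12.27 in shMef2c and 5.60 in shCtrl. The pericyte genes Rgs5, Cspg4 and Kcnj8 were at 0 to 0.42 FPKM and were not highest in WT.

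Genes of chromosome 17 were low in KO as a block, and its part in the member ratios was not tested. Dll1, Notch3 and Notch4 lie on chromosome 17, where the median log2 ratio of KO over WT was -0.30 at day 5, with 478 of 601 measured genes below 0, and -0.20 at day 0, with 447 of 610 below 0. The Dll1 ratio of -0.97 at day 5 was lower than the median of that day, as were those of Notch3 at -0.48 and Notch4 at -0.36. At day 0, Notch3 at 0.08 and Notch4 at -0.17 lay above the median, and Dll1 did not pass the filter. In KO over shCtrl at day 5 the chromosome 17 median was -0.30. There Notch3 at -0.19 lay above it, and Dll1 at -1.11 and Notch4 at -0.67 below it. The chromosomes of the other members had medians close to 0 in KO over WT at day 5, at 0.05 on chromosome 2 (Notch1, Dll4, Jag1), -0.04 on chromosome 3 (Notch2), 0.03 on chromosome 7 (Dll3) and 0.05 on chromosome 12 (Jag2). In shMef2c over shCtrl, chromosome 17 had a median of 0.01.

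Dll1 and Dll3, the members whose log2 levels spanned 1 or more at day 5, were set beside every other named gene. Likeness was the root-mean-square difference between log2 levels centred within each day, over the 8 libraries, so it says nothing of shared function. Of 10619 genes, the most like Dll1 were Fbxl16 (0.113), Wscd1 (0.122) and Msi1 (0.126). Msi1, which encodes an RNA-binding protein of neural progenitors, was at 26.5 FPKM in KO, 56.3 in WT, 17 in shMef2c and 50.7 in shCtrl at day 5. Dll3 ranked only 538 among them, at 0.360. The most like Dll3, of 10618 genes, were Zmym2 (0.115), Khnyn (0.115) and Zmym5 (0.123), and Jag1 ranked 162. All 3 lie on chromosome 14, unlike Dll3, and chromosome 14 was low in KO as a block, with a median log2 ratio of KO over WT of -0.28 at day 5 and -0.16 at day 0. Over the 4 day 5 libraries alone the nearest genes were others, Vstm2b, Tubb2b and Slc18a2 for Dll1 and Camk1g, Hdac11 and Pitpnm1 for Dll3, with 0 shared, so these lists depend on the day 0 values.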

How the data were processed

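Polyadenylated RNA was sequenced per the labels. For day 5, the authors deposited FPKM values and estimated counts, which need not be whole, for each library and gene, with genes not listed set to 0. The day 0 libraries came as 1 table, with RPKM values and estimated counts as deposited, per the file headers. Their day 5 comparison tables hold log2 ratios, per the file headers, and are quoted only where named. Build mm9 and the tools RSEM, HISAT, HISAT2, Bowtie and Bowtie2 appear in the submitters' processing notes without role or version. Neither the strand setting nor the annotation is given in the sources used here. Reads of overlapping or antisense genes therefore cannot be told apart.

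Log2 ratios were computed over all features on deposited values with a pseudocount of 1, counting genes at 2-fold or more where the pair's mean was at least 1. Ratios of read shares used estimated counts, with exact 95% intervals (scipy 1.17.1). Day 5 over day 0 ratios were centred on the median gene. The scripts were tested on simulated data. Of the day 0 symbols, 26 that a spreadsheet had turned into dates were restored by gene identifier. Named genes are the 9 members, pathway genes past 2-fold in a day 5 pair (otherwise counts), proneural activators past the filter and the 3 genes most like Dll1 or Dll3. Genes beyond that rule (Hes1, Rbpj, Dtx1, single markers and chromosome 14) were added after their values were seen, and 1 gene of the activator list is not reported here. Members and lists were chosen with earlier results of these data known. Alternatives were a pseudocount of 0.1, no filter, a mean of 5 or more, TPM, estimated counts (rounded to whole numbers) scaled by edgeR 4.0.16 TMM factors or by DESeq2 1.42.0 size factors, a 1.5-fold rule, the other control library and, between days, no centring.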

Additional observations from a re-analysis of the deposited data

Results flagged for a closer look

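For Notch1 and Notch2, the difference between shMef2c and shCtrl ran in opposite directions on the 2 days. Their counting intervals left out 1 on both days. Notch4 (log2 ratio -0.27 at day 5 and 0.17 at day 0), Jag1 (-0.15 and 0.12) and Jag2 (-0.14 and 0.16) also turned. For each of these 3 the interval held 1 on 1 of the days. Day 5 minus day 0, the log2 ratio of shMef2c over shCtrl differed by -0.62 for Notch1, with ratios of read shares of 0.763 at day 5 and 1.24 at day 0. For Notch2 it differed by -0.69, with ratios of 0.685 and 1.19. The difference was not tested, since each group has 1 library, and the day 0 side rests on the library labelled shMef2c, whose Mef2c level ran against its label. With WT in place of shCtrl at day 0, the Notch2 log2 ratio was -0.03, so the opposite direction held for Notch2 with shCtrl as control but not with WT.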

How the results depend on the processing

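No count of members changed direction under any alternative. In KO over WT at day 5, 1 member passed 2-fold, against 2 with a pseudocount of 0.1, with TMM factors, with DESeq2 size factors and with the other control library, where Dll1 joined Dll3, and 4 at 1.5-fold. In shMef2c over shCtrl at day 5, 1 passed, against 2 at 1.5-fold. In KO over WT at day 0, 1 passed, against 0 with a mean of 5 or more, which leaves Dll3 untested, 2 with TMM factors or DESeq2 size factors, where Jag2 joined Dll3, and 3 at 1.5-fold. In shCtrl over WT at day 0, 0 passed, against 1 at 1.5-fold. For day 5 over day 0, KO had 4, against 1 with a mean of 5 or more, shCtrl 2, against 6 at 1.5-fold, and shMef2c 3, against 1 with a mean of 5 or more and 5 at 1.5-fold. Other counts stayed within 1.5 times. Between days, TPM scaling moved the median log2 ratio of all genes to between -0.37 and -0.19, and members were read relative to it. Of 77 member ratios, 12 had an alternative of the other sign, all with a main log2 ratio between -0.17 and 0.21 except Notch4 in shMef2c over shCtrl at day 5 (-0.27, against 0.04 with WT as control). No paired analysis was possible because each group has 1 library and the labels carry no replicate numbers. Dll1 and Dll4 at day 0 and Dll4 at day 5 are limited by depth.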
